A study of Bos taurus with 10 samples.

Results

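The genes described here encode enzymes that interconvert steroids, oxidise or reduce aldehydes, or belong to the cytochrome P450 superfamily. They were chosen by symbol alone, as every listed gene that fits a naming pattern. The name begins with SRD5A, or with CYP, ALDH, HSD, AKR, DHRS, RDH, ADH, FMO, AOX or SULT followed directly by a digit. The pattern matched 73 genes. ALDH1A1, ALDH1A2, CYP26B1, RDH10 and DHRS3 were left out as genes of retinoic acid turnover, which left 68 of the 12674 genes in the table. RNA had been sequenced from intramuscular fat (IMF), the marbling fat that lies within skeletal muscle, and from subcutaneous fat (SF), the fat under the skin. The study asked why fat within muscle is laid down later and more slowly. Both depots came from 5 adult female Angus-cross cattle, with 5 libraries per depot, and no allele, diet or treatment separates the groups in the labels. Libraries that carry the same number were treated as 1 heifer. Total counts per library lay between 9392739 and 14836808 in intramuscular and between 13776094 and 17685678 in subcutaneous fat. Mature adipocyte markers were counted in every library, but least in intramuscular replicate 1, and striated muscle markers were highest in intramuscular replicates 1 and 3, so results are also given without that pair. The samples are whole tissue, so fewer cells of a type and less RNA per cell cannot be told apart.

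Adipose tissue takes up steroids from blood and changes them locally. Reductases and dehydrogenases of the HSD, AKR and SRD5A families turn weak steroids into strong ones or the reverse, and the local cortisol level depends on them. Cytochrome P450 enzymes insert an oxygen atom into sterols, fatty acids and foreign compounds. They draw electrons from POR in the endoplasmic reticulum or from the ferredoxin FDX1 in mitochondria. Aldehyde dehydrogenases (ALDH) oxidise the reactive aldehydes that come from lipid peroxidation, amino acid breakdown and alcohols to acids.

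More of these enzyme genes were lower than higher in intramuscular fat. CYP4B1, a P450 of the family that hydroxylates the ends of fatty acid chains, was 10.9-fold higher. The lower ones included the sterol hydroxylase gene CYP27A1, the steroid hydroxylase gene CYP17A1, the aldehyde reductase gene AKR1A1 and the aldehyde dehydrogenase genes ALDH3B1, ALDH4A1, ALDH3A2, ALDH9A1 and ALDH16A1. Of the 68 genes 67 passed the filter on low counts, and DHRS9, at 0.272 ± 0.203 CPM in intramuscular and 1.11 ± 1.18 CPM in subcutaneous fat (CPM, counts scaled to a library total of 1000000, mean ± SD, n = 5 each), did not. In edgeR's quasi-likelihood test, with p adjusted by Benjamini-Hochberg over all tested genes, 9 of the 67 were lower, where 5.49% of all 12521 tested genes were, and 1 was higher, where 6.75% of all genes were. The threshold was an adjusted p of 0.05. At an unadjusted p under 0.05, 26 of the 67 were lower and 2 higher, where 16.2% and 14.5% of all genes were, and the unadjusted counts given for gene groups have the same background. The log2 fold change of intramuscular over subcutaneous fat was negative for 51 of the 67, or 76.1%, with a median of -0.51, against 52.9% and a median of -0.04 over all tested genes. By role, group medians ran from -0.93 for 4 aldo-keto reductases to 0.37 for 3 P450s of fatty acids. In 7 of the 67 all 5 intramuscular libraries lay below all 5 subcutaneous ones, where 5.04% of all tested genes did so, and in 1 they lay above, where 7.85% did.

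With the heifer as a block in the same test, 18 of the 67 were lower and 2 higher, where 6.96% and 8.09% of all genes were. The block added AKR7A2, ALDH1L1, ALDH7A1, CYP2B6, CYP46A1, HSD17B10, HSD17B12, RDH13 and SRD5A1 to the lower genes and CYP1A1 to the higher ones, and all 10 genes called without it kept their call. The authors' deposited table, from DESeq2, lists 15 of the 68 as lower and 1 as higher at an adjusted p of 0.05. DESeq2 on the same counts here gave those numbers too, where 9.24% and 10.8% of all genes were lower and higher. The unpaired edgeR counts depended on single libraries, with 4 lower genes without intramuscular replicate 1, 2 or 3, where 2.93%, 2.97% and 2.09% of all genes were lower. Leaving out any other single library gave 6 to 11 lower genes, where 2.86% to 7.04% of all genes were lower, and CYP4B1 was the 1 higher gene in each of the 10 fits. Without intramuscular replicates 1 and 3 together, edgeR called CYP4B1 as higher and 0 genes as lower, where 2.43% and 0.531% of all genes were called. In that fit the 9 lower genes had adjusted p from 0.05545, for ALDH4A1, to 0.2455, for ALDH9A1, and 12 enzyme genes were lower at an unadjusted p under 0.05, where 9.73% of all genes were. The median log2 fold change there was -0.41, and 52 of 68 genes were negative. DESeq2 on the same libraries called 6 as lower and 1 as higher, where 3.34% and 4.88% of all genes were.

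**Figure D1:**
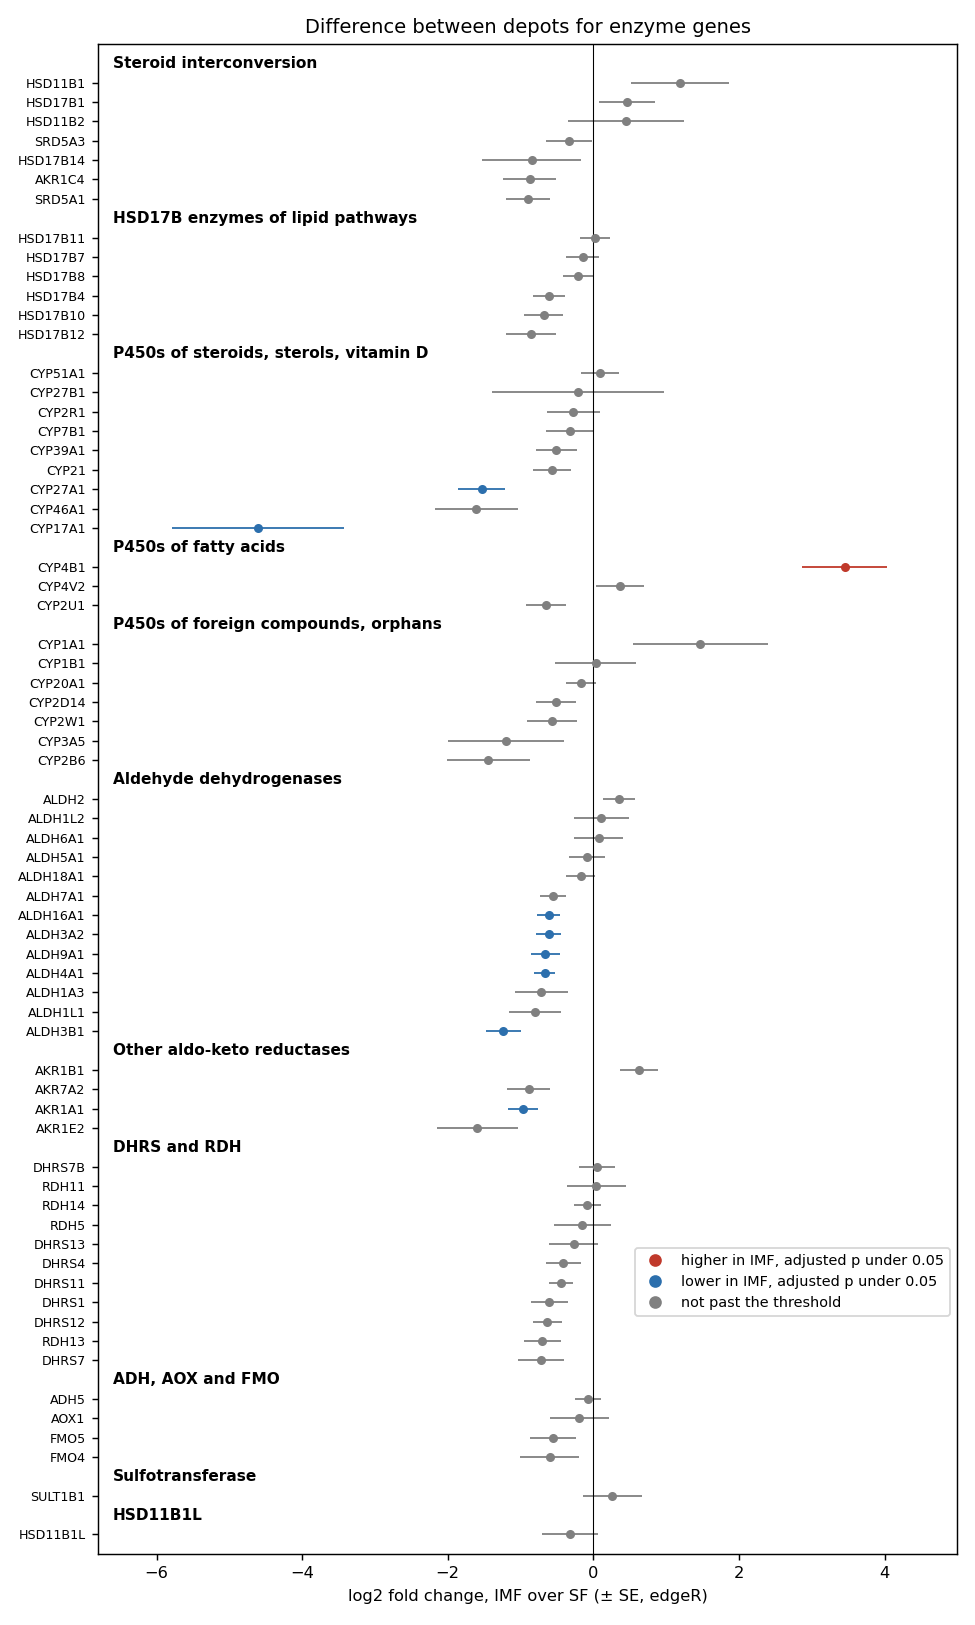
Log2 fold change of intramuscular (IMF) over subcutaneous fat (SF) for 66 of the enzyme genes tested, grouped by role (points, with bars for ± SE from edgeR). Red marks the 1 gene higher and blue the 8 genes lower past the threshold. Most grey points also lie left of zero.

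CYP4B1 was counted at 19.3, 21.6, 29.01, 67.2 and 25.6 CPM in intramuscular replicates 1 to 5, against 6.78, 1.83, 0.372, 3.88 and 1.97 CPM in subcutaneous replicates 1 to 5. Every intramuscular library exceeded every subcutaneous one, and intramuscular replicate 4 stood above the other four. CYP4B1 (ENSBTAG00000011976, chromosome 3, 99337603 to 99358612) had a log2 fold change of 3.45 ± 0.59 (± SE, edgeR adjusted p = 0.00315), and between 3.01 and 4.00 when any 1 library was left out. Coordinates are those of the deposited table, whose genome build is not given in the sources used here. Its length-scaled level averaged 12.7 CPM per kilobase in intramuscular and 1.16 in subcutaneous fat.

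Intramuscular libraries also held more striated muscle RNA. Of 98 listed striated muscle markers 20 had values, and 18 of these were higher and 0 lower, with summed levels of 3762, 1181, 1940.2, 623 and 777 CPM in intramuscular replicates 1 to 5, against 25.4 to 99.2 CPM in subcutaneous libraries. NMRK2, ANO5, CACNG6 and LRRC30 of that list had no count in any subcutaneous library. Without intramuscular replicates 1 and 3, which had the highest muscle sums, the log2 fold change of CYP4B1 was 3.68 (edgeR adjusted p = 0.0129). Mural cell markers, of pericytes and vascular smooth muscle, were also higher in 3 of 6 genes and lower in 0, with sums of 1031 to 1745 CPM in intramuscular and 600.3 to 978 CPM in subcutaneous libraries. Intramuscular replicates 2, 4 and 5, kept in the fit without replicates 1 and 3, still had muscle sums of 623 to 1181 CPM. Their mural sums were 1031 to 1128 CPM, and both sums lay above those of every subcutaneous library. The part of muscle or mural RNA in the CYP4B1 result was therefore not tested.

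The other P450s of fatty acid oxidation did not pass the threshold. CYP4V2, a fatty acid hydroxylase, measured 74.9 ± 31.6 CPM in intramuscular and 57.99 ± 23.9 CPM in subcutaneous fat (edgeR adjusted p = 0.475), and CYP2U1, which hydroxylates long-chain fatty acids, 20.6 ± 4.55 CPM in intramuscular and 32.3 ± 12.6 CPM in subcutaneous fat (edgeR adjusted p = 0.13). CYP2U1 passed without subcutaneous replicate 5, at an edgeR adjusted p of 0.0433. Its log2 fold change, -0.65 ± 0.27 (± SE), had the opposite sign to that of CYP4B1.

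Among the P450s of steroids, sterols and vitamin D, 2 of 9 genes were lower and 0 higher (edgeR). At an unadjusted p under 0.05 there were 3 lower and 0 higher, DESeq2 called 3 lower and 0 higher, and 8 had a negative log2 fold change. CYP27A1, the mitochondrial enzyme that oxidises the side chain of cholesterol, measured 81.1, 141, 91.9, 92.2 and 104 CPM in intramuscular replicates 1 to 5, against 154, 309, 525, 158 and 336 CPM in subcutaneous replicates 1 to 5. The depots did not overlap, and the subcutaneous libraries themselves spanned a wide range, with replicate 3 the highest. CYP27A1 (ENSBTAG00000013489, chromosome 2, 106739389 to 106782307) fell by 1.54 on the log2 scale (SE 0.32, edgeR adjusted p = 0.00939). It kept its call whichever library was left out, with log2 fold changes between -1.70 and -1.23. Leaving out intramuscular replicates 1 and 3 gave a log2 fold change of -1.40, with an adjusted p of 0.0972 by edgeR and 0.00839 by DESeq2. Macrophages express this enzyme as well, and of 13 macrophage markers 4 were lower and 0 higher, with sums of 991 to 1502 CPM in intramuscular and 1245 to 2908 CPM in subcutaneous libraries. Subcutaneous replicate 3 had the highest CYP27A1 and the lowest subcutaneous macrophage sum. Subcutaneous replicate 5 had the highest macrophage sum and the next highest CYP27A1, and intramuscular replicate 2 was the highest intramuscular library in both. The part of macrophages in the CYP27A1 result was not tested.

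CYP17A1, whose product makes the precursors of androgens and of cortisol, was the most uneven of these genes. It measured 0.842, 0.294, 0.146, 1.56 and 1.22 CPM in intramuscular replicates 1 to 5, against 0.7099, 6.45, 0.807, 17.5 and 75.1 CPM in subcutaneous replicates 1 to 5. Intramuscular libraries were all low and subcutaneous replicates 1 and 3 equally so, while replicate 5 stood far above the rest and the depots overlapped. The counts behind these levels were 9, 4, 2, 23 and 18 in intramuscular replicates and 11, 88, 13, 298 and 1104 in subcutaneous ones. The fitted log2 fold change was -4.61 ± 1.18 (± SE, edgeR adjusted p = 0.0252), the lowest among all tested genes. It became -2.95 (edgeR adjusted p = 0.067) without subcutaneous replicate 5. The edgeR adjusted p was 0.0567, 0.061 and 0.0681 without intramuscular replicate 1, 2 or 3, and limma voom gave 0.316. Of 9 markers of steroid-making adrenal or gonadal cells only STAR and INHA had values outside this gene family. STAR, which moves cholesterol into mitochondria, measured 7.49 ± 2.79 CPM in intramuscular and 7.44 ± 5.69 CPM in subcutaneous fat (mean ± SD, n = 5 each). INHA, an inhibin subunit, measured 3.10 ± 2.13 CPM in intramuscular and 3.51 ± 2.85 CPM in subcutaneous fat.

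The remaining sterol enzymes gave no call by edgeR without the block. CYP46A1, the cholesterol hydroxylase best known from neurons, measured 1.40, 0.808, 1.68, 8.13 and 2.30 CPM in intramuscular replicates 1 to 5, against 4.52, 6.96, 14.8, 10.7 and 6.87 CPM in subcutaneous replicates 1 to 5. It was lower in intramuscular fat in all 5 heifers, although intramuscular replicate 4 lay within the subcutaneous range. Its log2 fold change was -1.61 ± 0.57 (± SE), with an edgeR adjusted p of 0.0788, 0.0245 with the heifer as a block and 0.00628 without intramuscular replicate 4, where the log2 fold change was -2.50. DESeq2 and limma voom called it as lower as well (adjusted p of 0.0267 and 0.0445). CYP51A1, an enzyme of cholesterol synthesis, measured 35.6 ± 10.8 CPM in intramuscular and 33.4 ± 10.8 CPM in subcutaneous fat (edgeR adjusted p = 0.842). Its sign turned without intramuscular replicate 4 or 5 or subcutaneous replicate 2. CYP39A1 and CYP7B1, which hydroxylate oxysterols on the way to bile acids, had log2 fold changes of -0.51 and -0.32. The steroid hydroxylase gene listed as CYP21 had -0.57 (edgeR adjusted p 0.164), but its model overlaps TNXB on the opposite strand by 297 bases, and TNXB averaged 7436 counts per library against 275.6 for CYP21. The strand setting of the counting does not appear in any source consulted, so reads of such pairs cannot be told apart. The same holds for CYP27B1 and CYP2R1 of the vitamin D pathway, and for ALDH16A1, ALDH1L2, DHRS7 and HSD11B2.

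**Figure D2:**
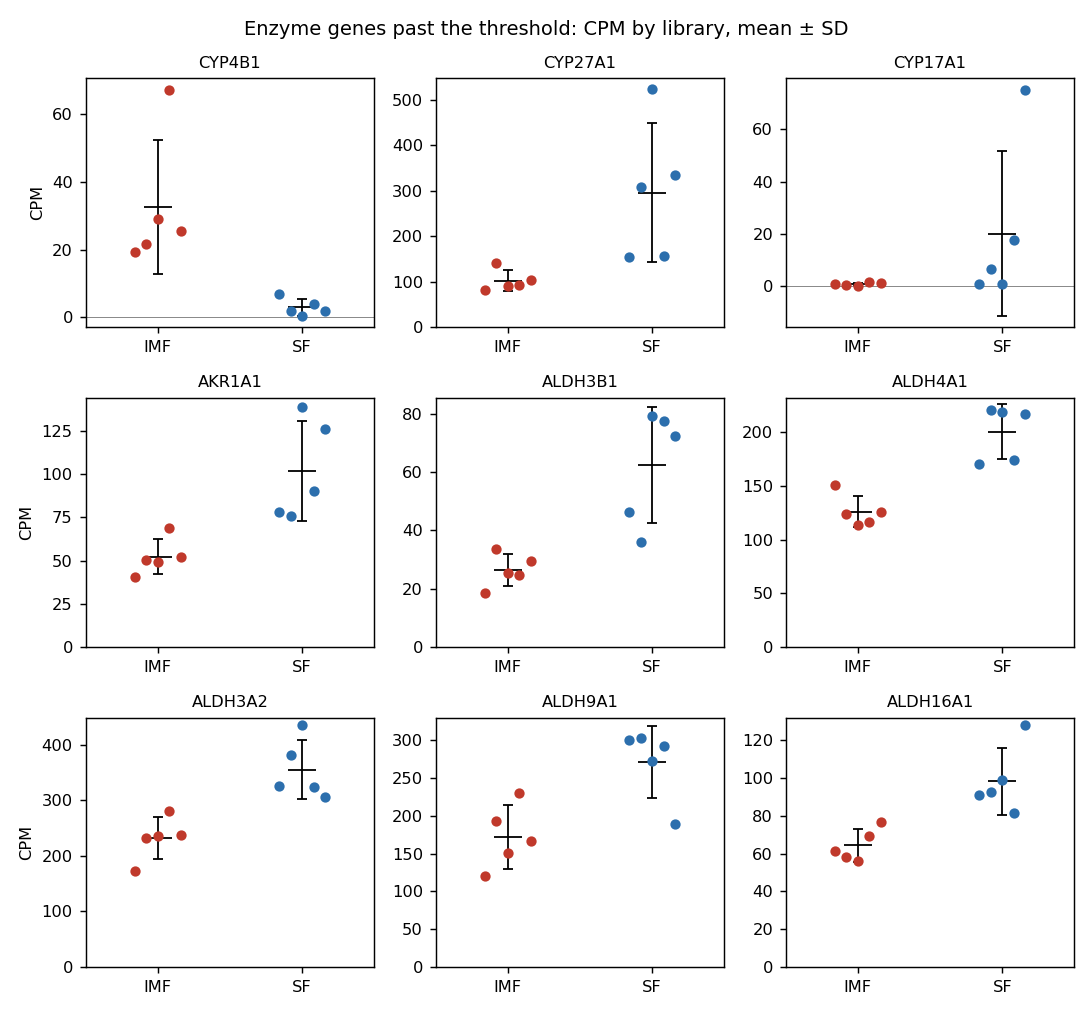
CPM in each library for 9 enzyme genes past the threshold, intramuscular (IMF) left and subcutaneous (SF) right. Points are replicates 1 to 5 from left to right, and the black marks give the mean ± SD. CYP4B1 is the 1 gene with higher intramuscular values, and CYP17A1 has 1 subcutaneous library far above the others.

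Aldehyde dehydrogenases held the most calls of any group, with 5 of 13 genes lower and 0 higher by edgeR. At an unadjusted p under 0.05 there were 7 lower and 0 higher, and DESeq2 called 6 lower and 0 higher. ALDH3B1, which oxidises fatty aldehydes at membranes, measured 18.7, 33.7, 25.6, 24.7 and 29.7 CPM in intramuscular replicates 1 to 5, against 46.3, 36.2, 79.4, 77.7 and 72.4 CPM in subcutaneous replicates 1 to 5. Its depots did not overlap, though subcutaneous replicate 2 came close to the highest intramuscular library. ALDH3B1 (ENSBTAG00000013093, chromosome 29, 45537447 to 45557692) fell by 1.24 on the log2 scale (SE 0.24, edgeR adjusted p = 0.00709). ALDH4A1, the mitochondrial enzyme that completes proline breakdown to glutamate, measured 151, 124, 114, 117 and 126 CPM in intramuscular replicates 1 to 5, against 171, 221, 219, 175 and 217 CPM in subcutaneous replicates 1 to 5. All intramuscular values lay below all subcutaneous ones, within a narrow range in each depot. ALDH4A1 (ENSBTAG00000030335, chromosome 2, 133756949 to 133790322) had a log2 fold change of -0.67 ± 0.15 (± SE, edgeR adjusted p = 0.0128). ALDH3B1 and ALDH4A1 kept their calls whichever single library was left out, at edgeR adjusted p up to 0.0247 and 0.0465. With intramuscular replicates 1 and 3 left out these were 0.073 and 0.05545 by edgeR, beside log2 fold changes of -1.09 and -0.72.

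The fall of the other 3 was smaller and near the threshold. ALDH3A2, the fatty aldehyde dehydrogenase of the endoplasmic reticulum, measured 172, 232, 236, 280.5 and 238 CPM in intramuscular replicates 1 to 5, against 326, 381, 435, 325 and 306 CPM in subcutaneous replicates 1 to 5. ALDH9A1, which acts in carnitine synthesis, measured 120.1, 194, 151, 230.0 and 167 CPM in intramuscular replicates 1 to 5, against 301, 303, 273, 293 and 189.6 CPM in subcutaneous replicates 1 to 5. ALDH16A1 measured 61.5, 58.1, 56.1, 69.5 and 76.9 CPM in intramuscular replicates 1 to 5, against 90.9, 92.6, 98.9, 81.4 and 128 CPM in subcutaneous replicates 1 to 5. ALDH3A2 and ALDH16A1 separated the depots, while for ALDH9A1 subcutaneous replicate 5 lay among the intramuscular values. The log2 fold changes of these 3 genes came to -0.61 ± 0.17, -0.66 ± 0.20 and -0.61 ± 0.16 (± SE) at edgeR adjusted p of 0.0352, 0.0483 and 0.027. ALDH3A2 lost its call without intramuscular replicate 1, 2, 3 or 5 or subcutaneous replicate 2 or 3 (edgeR adjusted p of 0.0636 to 0.0808). ALDH16A1 lost it without intramuscular replicate 1, 2 or 3 or subcutaneous replicate 3 (0.0525 to 0.0765), and ALDH9A1 lost it in 8 of the 10 fits, the exceptions being those without intramuscular replicate 4 and without subcutaneous replicate 5 (0.0632 to 0.108). ALDH7A1, which degrades lysine, also separated the depots, at 115 ± 12.2 CPM in intramuscular and 169 ± 42.3 CPM in subcutaneous fat, with an edgeR adjusted p of 0.0563 and of 0.0465 with the heifer as a block.

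ALDH2, the mitochondrial enzyme that clears acetaldehyde, gave no call and a positive sign. It measured 578, 339, 419.9, 351 and 368 CPM in intramuscular replicates 1 to 5, against 426, 310.0, 284, 216 and 374 CPM in subcutaneous replicates 1 to 5. Intramuscular replicate 1 was the highest of all 10 libraries, and 4 of 5 heifers had more in intramuscular fat. Its log2 fold change was 0.35 ± 0.22 (± SE, edgeR adjusted p = 0.285). ALDH6A1 of valine breakdown, ALDH5A1 of GABA breakdown, ALDH18A1 of proline synthesis and ALDH1L2 of mitochondrial folate metabolism had log2 fold changes of 0.07, -0.09, -0.18 and 0.11, with edgeR adjusted p of at least 0.586. The sign of ALDH6A1 turned without intramuscular replicate 3 or subcutaneous replicate 5. ALDH1L1, the cytosolic folate enzyme, measured 17.4 ± 9.36 CPM in intramuscular and 30.3 ± 10.2 CPM in subcutaneous fat (mean ± SD, n = 5 each, edgeR adjusted p = 0.152, or 0.0399 with the heifer as a block). ALDH1A3, which oxidises retinaldehyde, had a log2 fold change of -0.72 ± 0.36 (± SE, edgeR adjusted p = 0.199).

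Of the aldo-keto reductases outside the steroid-reducing ones, 1 of 4 was lower and 0 were higher by edgeR. At an unadjusted p under 0.05 there were 3 lower and 1 higher, and DESeq2 called 3 lower and 0 higher. AKR1A1, the general aldehyde reductase, measured 40.6, 50.4, 49.2, 68.7 and 52.2 CPM in intramuscular replicates 1 to 5, against 78.2, 75.8, 139, 90.3 and 126 CPM in subcutaneous replicates 1 to 5. The depots did not overlap. AKR1A1 (ENSBTAG00000000497, chromosome 3, 100505194 to 100517388) fell by 0.96 on the log2 scale (SE 0.21, edgeR adjusted p = 0.0118, at most 0.0357 with any 1 library left out and 0.107 without intramuscular replicates 1 and 3). AKR7A2, which reduces succinic semialdehyde, measured 74.7 ± 28.99 CPM in intramuscular and 139 ± 49.1 CPM in subcutaneous fat and was lower in all 5 heifers (edgeR adjusted p = 0.0601, or 0.0142 with the heifer as a block). AKR1E2, a further member of this family, was scarce, at 1.31 ± 0.827 CPM in intramuscular and 3.98 ± 1.75 CPM in subcutaneous fat, and DESeq2 called it as lower where edgeR did not (edgeR adjusted p = 0.0775). AKR1B1, aldose reductase, had the opposite sign. It measured 44.00, 25.8, 24.8, 19.99 and 22.2 CPM in intramuscular replicates 1 to 5, against 19.7, 10.6, 19.4, 14.6 and 24.3 CPM in subcutaneous replicates 1 to 5. Intramuscular replicate 1 was the highest and 4 of 5 heifers had more in intramuscular fat, with a log2 fold change of 0.63 ± 0.27 (± SE, edgeR adjusted p = 0.132).

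Enzymes that interconvert steroid hormones gave 0 calls among 7 genes by edgeR, with 2 lower and 0 higher at an unadjusted p under 0.05, and DESeq2 called 1 lower. The gene DESeq2 called was SRD5A1, a reductase that makes dihydrotestosterone and also inactivates glucocorticoids. It measured 17.7, 38.4, 29.4, 33.1 and 27.8 CPM in intramuscular replicates 1 to 5, against 23.9, 64.6, 86.2, 46.6 and 51.2 CPM in subcutaneous replicates 1 to 5. All 5 heifers had less in intramuscular fat, and subcutaneous replicate 1 lay among the intramuscular values. Its log2 fold change was -0.90 ± 0.30 (± SE), with an edgeR adjusted p of 0.0652, 0.0217 with the heifer as a block and 0.0137 without subcutaneous replicate 1. AKR1C4, of the family that reduces keto groups on steroids, was lower in 5 of 5 heifers (4.35 ± 1.55 CPM in intramuscular and 7.98 ± 3.44 CPM in subcutaneous fat, edgeR adjusted p = 0.122, or 0.156 with the heifer as a block).

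SRD5A3, HSD17B1 and HSD17B14 had log2 fold changes of -0.33, 0.46 and -0.85, and HSD11B1L, outside the groups above, -0.32, with edgeR adjusted p of at least 0.423.

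HSD11B1, the reductase that regenerates cortisol within cells, was barely counted. It had 27, 8, 34, 18 and 8 counts in intramuscular replicates 1 to 5 and 12, 18, 8, 8 and 2 counts in subcutaneous ones. These correspond to 2.53, 0.587, 2.48, 1.22 and 0.541 CPM in intramuscular replicates 1 to 5, against 0.774, 1.32, 0.497, 0.470 and 0.136 CPM in subcutaneous replicates 1 to 5. The depots overlapped, 4 of 5 heifers had more in intramuscular fat, and the log2 fold change was 1.19 ± 0.67 (± SE, edgeR adjusted p = 0.245). The reverse enzyme HSD11B2 measured 1.68 ± 0.823 CPM in intramuscular and 1.23 ± 1.18 CPM in subcutaneous fat. H6PD, which supplies NADPH to HSD11B1, measured 11.6 ± 2.35 CPM in intramuscular and 14.1 ± 8.58 CPM in subcutaneous fat, and its sign turned by limma voom. The glucocorticoid receptor gene NR3C1 measured 117 ± 18.4 CPM in intramuscular and 119 ± 21.1 CPM in subcutaneous fat (mean ± SD, n = 5 each). The edgeR adjusted p of HSD11B2, H6PD and NR3C1 were 0.738, 0.687 and 0.956.

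The HSD17B enzymes of lipid pathways gave 0 calls among 6 genes by edgeR, with 3 lower and 0 higher at an unadjusted p under 0.05, and DESeq2 called 0. HSD17B12, which reduces the growing chain in fatty acid elongation, measured 102, 189, 283, 428 and 317 CPM in intramuscular replicates 1 to 5, against 264, 401, 611, 636 and 478 CPM in subcutaneous replicates 1 to 5. Each heifer had less in intramuscular fat, yet the depots overlapped, with intramuscular replicates 3, 4 and 5 above subcutaneous replicate 1. HSD17B10, a mitochondrial enzyme of isoleucine breakdown, measured 110.4, 134, 154, 227 and 209 CPM in intramuscular replicates 1 to 5, against 190.1, 180.2, 283, 256 and 429.7 CPM in subcutaneous replicates 1 to 5. Here too all 5 heifers had less in intramuscular fat and the depots overlapped. HSD17B12 and HSD17B10 had edgeR adjusted p of 0.114 and 0.107, and of 0.00992 and 0.0324 with the heifer as a block. HSD17B4, the peroxisomal beta-oxidation enzyme, had a log2 fold change of -0.61 ± 0.22 (± SE, edgeR adjusted p = 0.0848). HSD17B8 of mitochondrial fatty acid synthesis, HSD17B7 of cholesterol synthesis and HSD17B11 of lipid droplets lay between -0.21 and 0.03.

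P450s of foreign compounds and orphan P450s gave 0 calls among 7 genes by edgeR, with 1 lower and 0 higher at an unadjusted p under 0.05, and DESeq2 called 0. CYP2B6 measured 34.5, 111, 125, 200.3 and 87.99 CPM in intramuscular replicates 1 to 5, against 92.3, 189, 234, 855 and 153 CPM in subcutaneous replicates 1 to 5. Every heifer had less in intramuscular fat, and subcutaneous replicate 4 stood several-fold above all other libraries. The edgeR adjusted p was 0.108, or 0.00903 with the heifer as a block, at log2 fold changes of -1.45 and -1.19. Without subcutaneous replicate 4 the unpaired value was -0.58 (edgeR adjusted p = 0.354). CYP1A1, the enzyme induced through the aryl hydrocarbon receptor AHR, measured 13.7, 3.38, 6.72, 76.3 and 23.9 CPM in intramuscular replicates 1 to 5, against 6.07, 0.586, 5.15, 30.7 and 2.04 CPM in subcutaneous replicates 1 to 5. It was higher in intramuscular fat in all 5 heifers, and replicate 4 was the highest library of both depots. Its log2 fold change was 1.47 ± 0.93 (± SE) with an edgeR adjusted p of 0.303, and 1.68 with an adjusted p of 0.03 with the heifer as a block. The unpaired value was 0.40 without intramuscular replicate 4 and 2.83 without subcutaneous replicate 4 (edgeR adjusted p of 0.795 and 0.06001). CYP1B1, another AHR target, measured 3.99 ± 1.74 CPM in intramuscular and 3.92 ± 2.05 CPM in subcutaneous fat (mean ± SD, n = 5 each). AHR itself measured 9.36 ± 1.48 CPM in intramuscular and 6.88 ± 4.46 CPM in subcutaneous fat. These 2 genes had edgeR adjusted p of 0.978 and 0.633. The sign of CYP1B1 turned when intramuscular replicate 2 or 3 or subcutaneous replicate 3 was dropped. CYP2D14, CYP3A5, CYP20A1 and CYP2W1 had log2 fold changes of -0.51, -1.20, -0.17 and -0.57. The gene families of CYP2B6, CYP2D14 and CYP3A5 hold near-identical copies, so the split of reads among copies is uncertain.

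Subcutaneous replicate 4, the library highest in CYP2B6 and, among subcutaneous ones, in CYP1A1, was also high in transferrin (TF), a liver marker, at 1241 CPM against 42.98 to 184 CPM in the other subcutaneous libraries. Albumin, the defining liver marker, was at 3.11 CPM there and between 0.452 and 3.23 CPM in the others. Of 10 listed liver markers 4 had values, and 3 of these were lower and 0 higher in intramuscular fat by edgeR. Their sums were 22.3 to 109 CPM in intramuscular and 107 to 1279 CPM in subcutaneous libraries. The part of liver-type RNA in the CYP2B6 and CYP1A1 values was not tested.

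AOX1, aldehyde oxidase, and ADH5, which clears formaldehyde bound to glutathione, were among the abundant members and gave no call. AOX1 measured 144, 664, 282, 193 and 276 CPM in intramuscular replicates 1 to 5, against 355, 662, 243, 296 and 226 CPM in subcutaneous replicates 1 to 5. It was highest in replicate 2 of both depots, at nearly the same level. ADH5 measured 99.4 ± 9.51 CPM in intramuscular and 105 ± 26.1 CPM in subcutaneous fat (mean ± SD, n = 5 each). The edgeR adjusted p were 0.783 and 0.812, and the sign turned without subcutaneous replicate 2 for AOX1 and without subcutaneous replicate 3 for ADH5. FMO5 and FMO4 had log2 fold changes of -0.55 and -0.60. SULT1B1, a sulfotransferase of phenols and thyroid hormone, was the only SULT gene with values (9.30 ± 5.72 CPM in intramuscular and 7.79 ± 2.05 CPM in subcutaneous fat, edgeR adjusted p = 0.7), and its sign turned without intramuscular replicate 5.

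DHRS and RDH genes, short-chain dehydrogenases of retinoids, steroids and other carbonyls, gave 0 calls among 11 tested by edgeR. There were 5 lower and 0 higher at an unadjusted p under 0.05, and DESeq2 called DHRS12 as lower. DHRS12 measured 31.7, 47.9, 38.1, 38.97 and 38.7 CPM in intramuscular replicates 1 to 5, against 50.9, 62.1, 75.4, 38.3 and 76.1 CPM in subcutaneous replicates 1 to 5. In 4 of 5 heifers it was lower in intramuscular fat, and subcutaneous replicate 4 lay among the intramuscular values (edgeR adjusted p = 0.0559, or 0.0206 without that library). DHRS11, DHRS1 and RDH13 were lower in 5 of 5 heifers, at log2 fold changes of -0.45, -0.61 and -0.70 and edgeR adjusted p of 0.0926, 0.127 and 0.0876. RDH13, a mitochondrial retinol dehydrogenase, passed with the heifer as a block (adjusted p = 0.036). The most abundant, DHRS4 and DHRS7, had log2 fold changes of -0.41 and -0.71, and DHRS7B, RDH14, RDH5, RDH11 and DHRS13 lay between -0.27 and 0.05.

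Levels of different genes can be set side by side only per length. HSD17B10 averaged 146 CPM per kilobase in intramuscular and 234 in subcutaneous fat. ALDH2 averaged 201 CPM per kilobase in intramuscular and 158 in subcutaneous fat, and HSD17B12 101 CPM per kilobase in intramuscular and 182 in subcutaneous fat. Among the enzyme genes kept from the naming pattern, ALDH2 was therefore the top one in intramuscular fat and HSD17B10 in subcutaneous fat. CYP27A1 averaged 41.9 CPM per kilobase in intramuscular and 122 in subcutaneous fat, and CYP2B6 42.9 CPM per kilobase in intramuscular and 117 in subcutaneous fat. Among the P450s kept from the naming pattern, CYP27A1 and CYP2B6 thus had the highest length-scaled levels in each depot. PTGIS, a P450 outside the pattern, averaged 74.3 CPM per kilobase in intramuscular and 15.6 in subcutaneous fat. At the low end, HSD11B1 averaged 1.45 CPM per kilobase in intramuscular and 0.629 in subcutaneous fat, CYP27B1 0.209 CPM per kilobase in intramuscular and 0.245 in subcutaneous fat, and DHRS9 0.123 CPM per kilobase in intramuscular and 0.505 in subcutaneous fat. No test was made between genes.

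**Figure D3:**
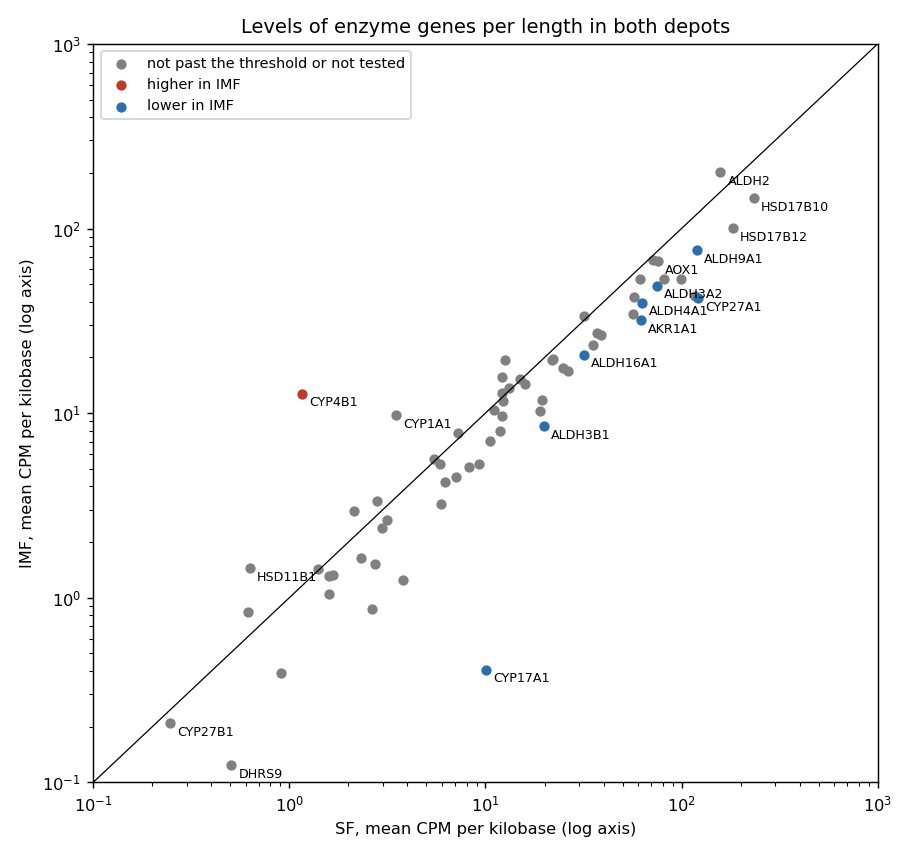
Mean CPM per kilobase of gene length in intramuscular fat (IMF, vertical log axis) and subcutaneous fat (SF, horizontal log axis) for 67 enzyme genes. Points on the line have equal levels. Blue points (8 lower genes) lie under it, and CYP4B1, in red, lies far above it.

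Library by library, the 68 genes summed to 2931, 3924, 3638, 4100 and 3707 CPM in intramuscular replicates 1 to 5, against 4442, 5252, 5829, 5283 and 5092 CPM in subcutaneous replicates 1 to 5. The depots did not overlap in this sum. The median of the 67 tested genes, as log2 CPM relative to each gene's subcutaneous mean, stood at -0.71, -0.29, -0.48, -0.22 and -0.32 in intramuscular replicates 1 to 5, against -0.10, 0.10, 0.18, -0.09 and 0.03 in subcutaneous ones. The same median over all tested genes stayed between -0.03 and 0.05 in every library. Intramuscular replicates 1 and 3, the lowest in the enzyme median, were the highest in striated muscle markers, as given above. Mature adipocyte markers, of which 2 of 17 tested were lower and 0 higher, had a median log2 fold change of -0.81. They summed to 18210.5, 39562, 47404, 69681 and 70179 CPM in intramuscular replicates 1 to 5, against 67652, 82594, 90162, 95188 and 91884 CPM in subcutaneous ones. Their sum was lowest in intramuscular replicate 1 as well. The lipogenic genes SCD and FASN made the largest parts of it. SCD averaged 18975 CPM in intramuscular and 32499 CPM in subcutaneous fat, and FASN 10379 and 20711 CPM. Endothelial markers were lower in 4 of 13 genes and higher in 0, with sums of 2048 to 2621 CPM in intramuscular and 2533 to 4631 CPM in subcutaneous libraries. Markers of fibro-adipogenic progenitors were lower in 5 of 14 and higher in 0 (6245 to 9783 CPM in intramuscular and 8099.9 to 11979 CPM in subcutaneous libraries), while Schwann cell markers were higher in 7 of 10 and lower in 1, and their sums were 537 to 917 CPM in intramuscular and 693 to 1508 CPM in subcutaneous libraries. The part of these cell types in the lower enzyme levels was not tested.

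**Figure D4:**
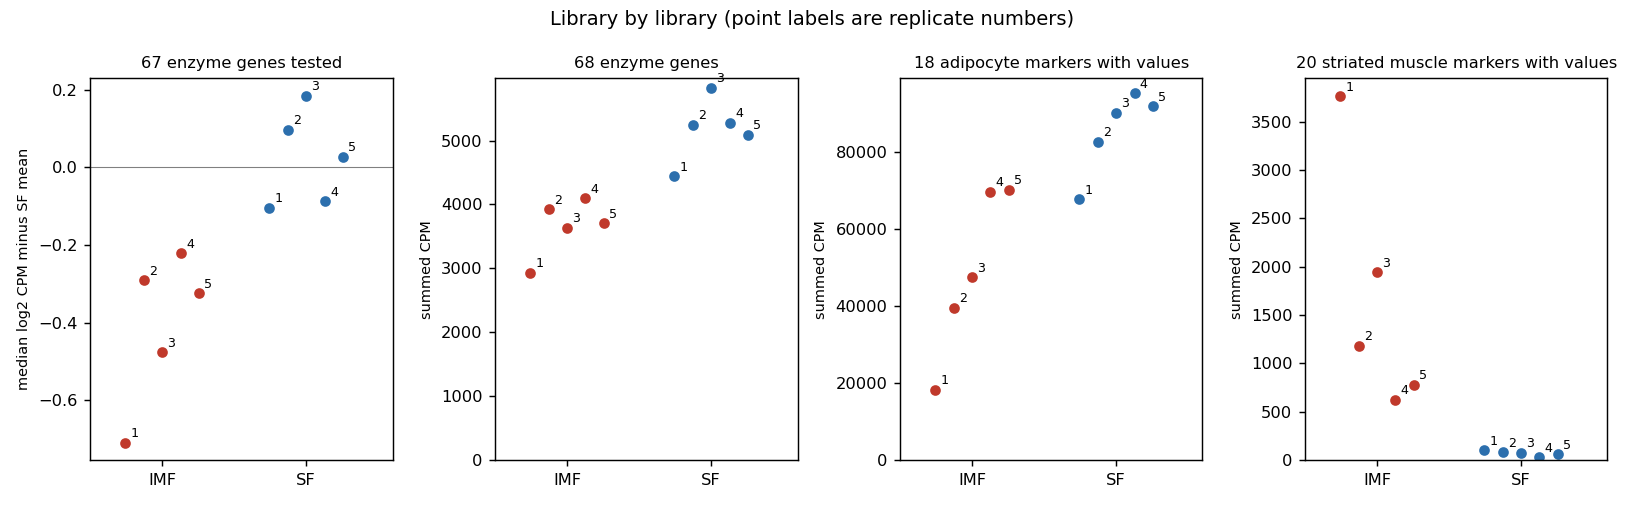
From left to right, the median log2 CPM of the 67 tested enzyme genes relative to their subcutaneous means, and the summed CPM of the 68 enzyme genes, of 18 adipocyte markers and of 20 striated muscle markers. Each point is 1 library, labelled by replicate, intramuscular (IMF) left and subcutaneous (SF) right. Intramuscular replicate 1 is lowest in the first 3 panels and highest in the last.

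Among 93 tested partner genes of the same pathways, which are not members, 2 were higher and 12 lower by edgeR, where 6.75% and 5.49% of all genes were. The lower genes numbered 7 without intramuscular replicate 1 or 3, where 2.93% and 2.09% of all genes were lower. They numbered 6 without intramuscular replicate 5 or subcutaneous replicate 3, where 3.54% and 2.86% of all genes were. The higher genes numbered 1 without intramuscular replicate 3 or 5, where 3.93% and 5.83% of all genes were higher. They numbered 5 without subcutaneous replicate 1, where 8% of all genes were. Without intramuscular replicates 1 and 3 together, PGRMC1 was the 1 lower gene (edgeR adjusted p = 0.0381) and PTGIS was still higher (0.017). Of 14 genes that supply P450s with electrons or haem, 2 were lower and 0 higher, with a median log2 fold change of -0.40 (5 lower and 1 higher at an unadjusted p under 0.05, 3 lower and 0 higher by DESeq2). PGRMC1, a haem-binding protein that associates with P450s, measured 59.7, 91.8, 68.04, 95.1 and 73.7 CPM in intramuscular replicates 1 to 5, against 175, 156, 172, 198 and 116 CPM in subcutaneous replicates 1 to 5. The depots did not overlap, and the log2 fold change was -1.07 ± 0.18 (± SE, edgeR adjusted p = 0.00315, at most 0.0116 with any 1 library left out). FDX1, the ferredoxin that passes electrons to CYP27A1 and the other mitochondrial P450s, measured 67.9, 126, 122, 123 and 100.5 CPM in intramuscular replicates 1 to 5, against 156, 163, 246, 152 and 148 CPM in subcutaneous replicates 1 to 5. It separated the depots as CYP27A1 did, at a log2 fold change of -0.68 ± 0.21 (± SE, edgeR adjusted p = 0.0485), but of the 10 fits with 1 library left out only that without subcutaneous replicate 1 kept the call, and the adjusted p reached 0.109 without subcutaneous replicate 3. Its own reductase FDXR measured 17.5 ± 5.74 CPM in intramuscular and 23.6 ± 6.80 CPM in subcutaneous fat (mean ± SD, n = 5 each, edgeR adjusted p = 0.292). POR, the reductase of microsomal P450s, measured 76.1 ± 13.8 CPM in intramuscular and 106 ± 26.8 CPM in subcutaneous fat (edgeR adjusted p = 0.12).

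**Figure D5:**
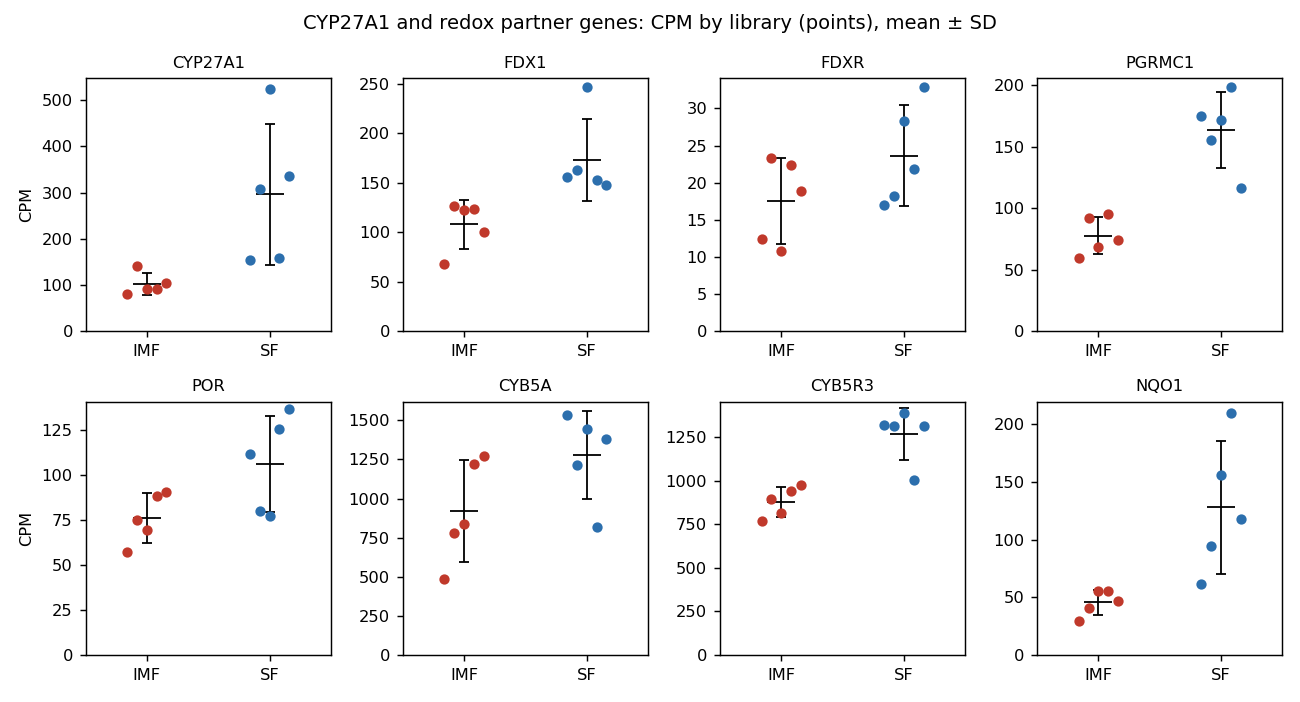
CPM in each library for CYP27A1 and 7 genes of the partner lists, intramuscular (IMF) left and subcutaneous (SF) right. NQO1 is from the xenobiotic sensing list, and the other partner genes are from the list of electron and haem supply. Points are replicates 1 to 5 from left to right, with the mean ± SD in black. CYP27A1, FDX1, PGRMC1, CYB5R3 and NQO1 have no intramuscular value above a subcutaneous one, while FDXR, POR and CYB5A overlap.

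Steroid supply genes included 4 lower and 0 higher of 12 by edgeR, with a median log2 fold change of -0.42 (6 and 0 at an unadjusted p under 0.05, 5 and 0 by DESeq2). NR5A2, a nuclear receptor that drives steroid-making enzymes in the ovary, measured 3.04 ± 0.548 CPM in intramuscular and 8.10 ± 2.47 CPM in subcutaneous fat, and TSPO, a cholesterol-binding protein of the outer mitochondrial membrane, 55.00 ± 8.81 CPM in intramuscular and 116 ± 47.3 CPM in subcutaneous fat (mean ± SD, n = 5 each). Both separated the depots, at edgeR adjusted p of 0.0109 and 0.0135, and kept their calls whichever library was left out. The lysosomal cholesterol carrier NPC2 and the lipid carrier STARD5 had log2 fold changes of -0.79 and -1.02 (edgeR adjusted p 0.0263 and 0.0435). NPC2 lost its call without intramuscular replicate 3 or 5 or subcutaneous replicate 3 (0.0507 to 0.0629), and STARD5 kept it only without replicate 1 of either depot (up to 0.110 in the other fits).

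Of 14 steroid receptor, cofactor and glucocorticoid-induced genes, 1 was higher and 0 were lower by edgeR, with a median log2 fold change of 0.45 (5 and 0 at an unadjusted p under 0.05, 2 and 0 by DESeq2). The higher gene was TSC22D3, which encodes the glucocorticoid-induced leucine zipper. It measured 299.6, 399, 403, 386 and 439 CPM in intramuscular replicates 1 to 5, against 361, 188, 148, 129.9 and 157 CPM in subcutaneous replicates 1 to 5. Subcutaneous replicate 1 lay among the intramuscular values, and the other subcutaneous libraries lay below all of them. The log2 fold change was 0.97 ± 0.26 (± SE), with an edgeR adjusted p of 0.0317 and of 0.000971 without subcutaneous replicate 1. Leaving out intramuscular replicate 2, 3 or 5 or subcutaneous replicate 2, 3, 4 or 5 ended the call (edgeR adjusted p of 0.05697 to 0.07644). FKBP5, another such gene, measured 337 ± 289 CPM in intramuscular and 239.7 ± 170.4 CPM in subcutaneous fat (mean ± SD, n = 5 each, edgeR adjusted p = 0.63).

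In the detoxification lists, 1 of 13 genes of xenobiotic sensing and 3 of 22 conjugating or hydrolysing enzymes were lower, and 0 of either were higher by edgeR. At an unadjusted p under 0.05 the sensing list held 2 lower genes and 1 higher, and DESeq2 called 2 lower and 0 higher. The enzyme list held 8 lower and 1 higher at that p, and DESeq2 called 5 lower and 2 higher. The median log2 fold changes of the lists were 0.07 and -0.27. NQO1, a quinone reductase induced through NFE2L2, measured 29.8, 40.3, 55.5, 55.3 and 46.6 CPM in intramuscular replicates 1 to 5, against 61.6, 94.1, 156, 210.2 and 118 CPM in subcutaneous replicates 1 to 5. The depots did not overlap, and the log2 fold change was -1.49 ± 0.30 (± SE, edgeR adjusted p = 0.00778, at most 0.0234 with any 1 library left out). The microsomal glutathione transferase gene MGST3 measured 317 ± 90.5 CPM in intramuscular and 717 ± 248 CPM in subcutaneous fat (mean ± SD, n = 5 each, edgeR adjusted p = 0.0144). Its relative MGST1 measured 742 ± 323 CPM in intramuscular and 1626 ± 596 CPM in subcutaneous fat (edgeR adjusted p = 0.0487). PON3, a lactonase, measured 66.3 ± 23.3 CPM in intramuscular and 134 ± 46.3 CPM in subcutaneous fat (edgeR adjusted p = 0.0256). MGST3 kept its call whichever library was left out. MGST1 lost it without intramuscular replicate 1, 2 or 3 or subcutaneous replicate 3, 4 or 5 (0.07725 to 0.1095), and PON3 when intramuscular replicate 1, 2 or 5 or subcutaneous replicate 3 was dropped (0.0567 to 0.0614).

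Related dehydrogenases and prostanoid enzymes held 1 higher and 2 lower genes of 18 by edgeR, with a median log2 fold change of -0.38. In this list 2 were higher and 5 lower at an unadjusted p under 0.05. DESeq2 called 2 higher and 4 lower, and edgeR with the heifer as a block 1 higher and 4 lower. PTGIS, the P450 that makes prostacyclin and whose symbol lies outside the naming pattern, measured 282, 195, 192, 153 and 161 CPM in intramuscular replicates 1 to 5, against 83.4, 32.3, 17.2, 31.9 and 41.4 CPM in subcutaneous replicates 1 to 5. Like CYP4B1, it was higher in every intramuscular library than in every subcutaneous one. The part of muscle or mural RNA in this result was not tested. The fit without intramuscular replicates 1 and 3 cannot decide it, as the libraries kept still held more of both, as given above. Its log2 fold change was 2.25 ± 0.35 (± SE, edgeR adjusted p = 0.00173, at most 0.00652 with any 1 library left out). Prostaglandin D synthase PTGDS and the dehydrogenase-like gene HSDL1 had log2 fold changes of -0.67 and -0.90 (edgeR adjusted p 0.034 and 0.024). PTGDS kept its call only without subcutaneous replicate 1, 3 or 4 (0.0551 to 0.0972 in the other fits), and HSDL1 lost it without intramuscular replicate 1 or 5 or subcutaneous replicate 3 (0.05415 to 0.0553).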

How the data were processed

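Total RNA of fat from both depots was made into dUTP-marked, random-primed libraries and sequenced in pairs, per the labels' protocols. Trimmomatic 0.39, STAR 2.7.11a and featureCounts 2.0.2, together with DESeq2 1.42.0, are named in the submitters' processing notes. The authors deposited 1 table with raw counts per gene and library (9392739 to 14836808 counts in intramuscular and 13776094 to 17685678 in subcutaneous libraries). It also holds the authors' mean counts, a base mean from DESeq2 (normalised signal over all libraries), a deposited log2 fold change, the deposited Wald score and deposited p-values. Here raw counts were tested with edgeR 4.0.16 in R 4.3.3 (quasi-likelihood, TMM scaling, filterByExpr on depot, which removed 153 genes, two-sided), with Benjamini-Hochberg adjustment at 0.05 over all tested genes. The SE is the fold change divided by the root of the F statistic. CPM used scaled library sizes, log2 CPM a prior count of 2. The code was tested on simulated counts.

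Alternatives were DESeq2, limma 3.58.1 (voom), RLE scaling, no filter, a replicate block and left-out libraries. Replicate numbers were taken as pairs because, per the design text, each of 5 heifers gave both depots, and same-numbered libraries deviated together (correlations across genes of 0.102, 0.181, 0.176, 0.161 and 0.237). The labels do not say more on how tissues were cut, so p-values measure the spread between these libraries. The members and lists were chosen with earlier results of these data known. Genes named were all called members, the 2 highest and the smallest p in each role group, up to 4 called genes per partner list and a fixed set. Other members and FKBP5, INHA, STAR, FDXR, CYB5A, CYB5R3, TNXB, TF, NMRK2, ANO5, CACNG6, LRRC30 and the liver marker albumin were named after their values were seen. CYP19A1, AKR1C3, ADH1C, FMO1, FMO2 and SULT1A1 were not among the listed genes under these symbols, so they were not analysed here. The values of 1 member are not reported here, though the counts include it.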

Additional observations from a re-analysis of the deposited data

Results flagged for a closer look

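In 14 of 134 gene and depot groups (67 genes in both depots) the highest or lowest of the 5 libraries stood apart from the other 4 by a gap of more than 0.71 of the group's range. This limit flags about 1 in 20 groups of 5 normally distributed values, and its rate for CPM such as these was not tested.

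Intramuscular replicate 4 was high for CYP4B1 (67.2 CPM, others 19.3 to 29.0), CYP1A1 (76.3 CPM, others 3.38 to 23.9) and CYP46A1 (8.13 CPM, others 0.808 to 2.30). Intramuscular replicate 1 was high for AKR1B1 (44.0 CPM, others 19.99 to 25.8) and RDH5 (11.05 CPM, others 3.66 to 5.70), and replicate 2 for AOX1 (664 CPM, others 144 to 282) and CYP21 (23.9 CPM, others 11.04 to 14.5). Intramuscular replicate 5 was low for HSD17B14 (0.270 CPM, others 1.76 to 2.20).

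Subcutaneous replicate 4 was high for CYP2B6 (855 CPM, others 92.3 to 234) and CYP1A1 (30.7 CPM, others 0.586 to 6.07). Subcutaneous replicate 5 was high for CYP17A1 (75.1 CPM, others 0.7099 to 17.5) and low for ALDH9A1 (189.6 CPM, others 273 to 303). Subcutaneous replicate 3 was high for CYP20A1 (52.8 CPM, others 29.7 to 35.5) and low for CYP1B1 (0.372 CPM, others 4.15 to 5.50).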

How the results depend on the processing

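Of the alternatives run, RLE scaling and no filter left the 9 lower and 1 higher enzyme genes as they were. With limma voom there were 8 and 1, where 4.74% and 7.37% of all genes were lower and higher. DESeq2 gave 15 lower and 1 higher, and the replicate block, with the number taken as the heifer, 18 lower and 2 higher. With single libraries left out the lower genes numbered 4 to 11 and the higher 1. Without intramuscular replicates 1 and 3 edgeR gave 0 lower (12 at an unadjusted p under 0.05) and DESeq2, an alternative chosen after seeing the data, 6. Without replicates 1 and 3 of both depots the replicate block gave 3 lower and 2 higher, where 1.31% and 3.04% of all genes were. Fewer libraries enter these fits.

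Of the partner genes, 12 were lower and 2 higher by edgeR. DESeq2 gave 19 and 6, where 9.24% and 10.8% of all genes were lower and higher. Without intramuscular replicates 1 and 3 edgeR gave 1 lower, where 0.531% of all genes were. DESeq2 without them gave 7 and 5, where 3.34% and 4.88% of all genes were. The replicate block without replicates 1 and 3 of both depots gave 3 and 4, where 1.31% and 3.04% of all genes were. With single libraries left out there were 6 to 16 lower and 1 to 5 higher. Of all genes 2.09% to 7.04% were lower and 3.93% to 8% higher in those fits. Among the named partner genes, the replicate block (edgeR adjusted p = 0.0562) and limma voom (0.0544) ended the call of STARD5, and RLE scaling those of FDX1 and MGST1 (both 0.05003).

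Genes near no difference changed sign. Over the fits with 1 library left out, log2 fold changes ran from -0.20 to 0.051 for ADH5, -0.17 to 0.29 for ALDH6A1, -0.67 to 0.15 for AOX1, -0.27 to 0.23 for CYP1B1, -0.038 to 0.24 for CYP51A1, -0.10 to 0.072 for NR3C1 and -0.027 to 0.48 for SULT1B1. Without intramuscular replicates 1 and 3 ALDH6A1, AOX1 and CYP1B1 stood at -0.053, 0.090 and -0.13 by edgeR and at -0.045, 0.096 and -0.13 by DESeq2. In the blocked fit without replicates 1 and 3 of both depots ADH5, CYP1B1, H6PD and NR3C1 stood at 0.15, -0.60, 0.11 and 0.064, and by limma voom H6PD stood at 0.015. The cause of these changes was not tested. Depth limited HSD11B1, CYP27B1 and DHRS9 most, which had few counts in most libraries.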
